A study of Mus musculus with 28 samples.

Results

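The response to TGF-β was measured in CD4+ T cells labelled knockout (KO) for Tgfbr1, the TGF-β type I receptor gene. The comparison used 6 RNA-seq libraries, 3 of KO cells given TGF-β (KO TGF-β) and 3 of KO cells given no cytokine (KO control). They are 6 of 28 libraries in the series, of which 24 are RNA-seq libraries, 3 for each of 8 groups, and 4 are DNase-seq libraries that were not used here. The study asked how TGF-β and IL-4 drive naïve CD4+ T cells to become Th9 cells, which make IL-9. It used the KO cultures to ask what depends on the receptor. All cells, WT and KO, were taken to come from Tgfbr1 f/f Ert2-cre+ mice on a C57BL/6 background, of both sexes and 8 to 10 weeks old. In these mice tamoxifen for 5 days deletes the gene (KO) and oil does not (WT). The RNA-seq titles give the genotype only as WT or KO, so line and treatment are inferred from the rest of the study. Its methods also list Tgfbr1 f/f Cd4-cre+ mice. Naïve CD4+ CD62L+ cells were purified from spleen and lymph nodes and stimulated with anti-CD3 plus anti-CD28 in every culture. Each library carries a replicate number from 1 to 3 within its genotype, and the sources do not say whether a number stands for 1 mouse. The p-values therefore measure the spread between these samples, which may be technical. The study's general culture method used TGF-β1 at 2 ng/ml, and the culture time of the RNA-seq libraries is not given in the sources used here. In the Ert2-cre+ line the Cre is not confined to T cells, and deletion cannot be told apart from exposure to tamoxifen.

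The KO libraries were identified by position, and this order is not proven. The deposited table has 24 value columns whose headings run by condition, while the libraries were numbered replicate by replicate. KO control was taken as value columns 13, 17 and 21 and KO TGF-β as columns 14, 18 and 22, the order of the library numbers. Only 1 of these 6 columns carries the heading that this order gives it. For WT cells, which genes were at 0 was compared with the read counts in the paper's supplement, and 8 of 8 listed libraries matched the column at their library-number position, 2 of them also the column with their heading. The share of genes that agreed was at least 99.8% in the matching column and at most 85.8% in the next best. No such counts were at hand for KO cells. There, Il4ra, the IL-4 receptor chain gene that IL-4 itself raises, was 86.1 to 131 RPKM in the 6 columns placed with IL-4 and 41.8 to 45.6 RPKM in the 6 columns placed without it. By the headings the same ranges, 44.3 to 131 and 41.8 to 86.4 RPKM, overlapped. Each of the 6 columns also had the other column of its replicate as its closest KO column over all genes, but over all 12 KO columns the closest column was of the same replicate for 9. Neither check bears on which column of a replicate is control and which is TGF-β.

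**Figure D1:**
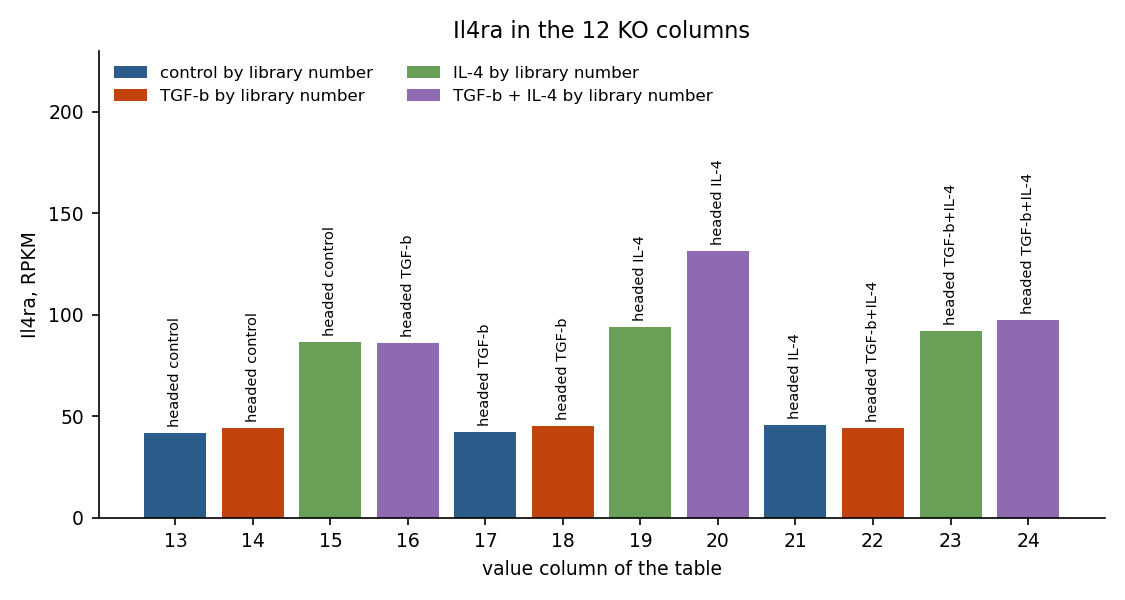
Il4ra (RPKM) in the 12 KO columns of the table, plotted by column position, 1 bar per library. Bar colour gives the culture by library number and the text above a bar gives its heading; the 6 columns placed with IL-4 reach 86.1 RPKM or more and the other 6 stay at 45.6 RPKM or less, whatever their heading.

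TGF-β binds the type II receptor TGFBR2, which activates the kinase TGFBR1. This kinase phosphorylates Smad2 and Smad3, which join Smad4 in the nucleus and change transcription. In CD4+ T cells the pathway raises Foxp3, the regulatory T cell factor, and restrains effector genes such as those of interferon gamma and granzyme B. With IL-4 it raises Il9.

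Tgfbr1 itself (chromosome 4: 47366094 to 47427803, plus strand, mm9) did not show the deletion as a loss of signal. Its level was 2.32, 2.55 and 3.05 RPKM in KO control and 2.37, 2.42 and 3.24 RPKM in KO TGF-β. WT control had 3.02, 3.25 and 3.31 RPKM, so the KO values lay at or slightly below those of WT control and partly overlapped them. The 3 WT TGF-β libraries had 13.9 to 14.5 RPKM, above every KO library. RPKM sum reads over a whole gene, so a deleted exon need not lower them, and the share of KO cells or alleles that kept the receptor cannot be read from them. The gene for the type II receptor, Tgfbr2, ranged from 8.11 to 9.84 RPKM in KO control and from 9.16 to 10.8 RPKM in KO TGF-β, and the groups overlapped.

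The cells were T cells by their markers. Cd3e ranged from 224 to 238 RPKM and Cd4 from 111 to 122 RPKM over the 6 libraries. Markers of other cells were low. The summed level of 11 measured myeloid markers was 2.57 to 4.86 RPKM in KO control and 3.72 to 15.3 RPKM in KO TGF-β. Of the 11, 3 were higher with TGF-β in all 3 replicates and 1 was at 0 in every library. Lyz2, the lysozyme gene of myeloid cells, was at 0.27, 0.11 and 1.48 RPKM in KO control and 0.86, 3.56 and 9.90 RPKM in KO TGF-β, higher in each replicate, while Csf1r stayed under 0.08 RPKM. Summed B cell, CD8 T cell and NK cell markers overlapped between the groups, at 9.66 to 10.7 against 8.33 to 10.8 RPKM, 14.8 to 16.7 against 14.3 to 15.2 RPKM, and 11.3 to 14.8 against 9.96 to 13.2 RPKM. The dendritic cell list was 17.5 to 24.4 RPKM in KO control and 22.1 to 27.2 RPKM in KO TGF-β, with 2 of its 8 genes higher in all 3 replicates. Erythroid markers were under 0.1 RPKM in sum. The part of these cells in the results below was not tested. In bulk RNA, fewer cells of a type and less RNA per cell cannot be told apart. The read depth of the columns is known only in relative terms, 0.65 to 1.06 of that of KO control replicate 1.

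In KO cells, almost nothing changed with TGF-β by the thresholds used. Of 9563 genes with a mean of at least 1 RPKM over the 6 libraries, 1 was called higher with TGF-β and 0 were called lower, a call being a limma adjusted p under 0.01 with a fold change over 1.5 on the log2(RPKM + 1) scale. These are 0.0105% and 0% of the genes tested. A total of 246 genes (2.57%) had an unadjusted limma p under 0.05. With the replicate number as a block the same thresholds called 2 genes, both higher, and 574 genes (6.00%) had an unadjusted p under 0.05. The median standard error of a gene's log2 difference was 0.08. For 9260 genes (96.8%) the 95% confidence interval lay inside a 1.5-fold change in either direction on the log2(RPKM + 1) scale. The same comparison in WT cells, 3 libraries against 3, called 333 genes higher and 222 lower of 9726, which is 3.42% and 2.28%. The interaction of genotype and TGF-β, which tests whether the responses differ, was called for 456 of 9678 genes, 276 (2.85%) with a change lower in KO than in WT and 180 (1.86%) with a change higher in KO. Leaving out any single KO library left 0 genes called in the KO comparison.

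The genes that led the rises in KO cells were Foxp3, Ccr8, Aqp3 and Il9, all called higher in WT cells. Of these only Foxp3 was called in KO. By unadjusted p in the limma fit, Il9 was no stronger than the gene that led the falls. The rise of Foxp3, Ccr8 and Aqp3 was called larger in WT by the interaction, and that of Il9 was not. Their upstream sequences are shown because these genes moved together in both genotypes. Each run is the 250 bases before the start site in RefSeq (GRCm38.p6), the one furthest upstream where a gene has 2, written 5′ to 3′ on the strand of the gene. Capitals mark CAGAC or its reverse complement GTCTG, a core to which Smad3 and Smad4 can bind.

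Foxp3 (chrX:7579426-7579675, plus strand): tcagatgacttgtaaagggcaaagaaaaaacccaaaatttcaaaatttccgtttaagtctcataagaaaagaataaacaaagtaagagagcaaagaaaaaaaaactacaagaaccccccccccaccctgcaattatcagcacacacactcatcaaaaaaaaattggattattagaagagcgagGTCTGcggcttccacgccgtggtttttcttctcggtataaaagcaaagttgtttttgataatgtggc
Ccr8 (chr9:120091883-120092132, plus strand): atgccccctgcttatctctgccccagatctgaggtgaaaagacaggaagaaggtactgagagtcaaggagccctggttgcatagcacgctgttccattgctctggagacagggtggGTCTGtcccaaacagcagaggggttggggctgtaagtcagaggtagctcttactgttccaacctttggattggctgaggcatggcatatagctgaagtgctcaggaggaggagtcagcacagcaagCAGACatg
Aqp3 (chr4:41098184-41098433, minus strand): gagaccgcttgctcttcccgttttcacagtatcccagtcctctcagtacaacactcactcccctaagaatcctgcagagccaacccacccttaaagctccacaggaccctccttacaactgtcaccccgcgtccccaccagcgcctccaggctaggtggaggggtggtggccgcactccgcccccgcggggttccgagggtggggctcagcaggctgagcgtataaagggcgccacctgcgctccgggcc
Il9 (chr13:56482258-56482507, minus strand): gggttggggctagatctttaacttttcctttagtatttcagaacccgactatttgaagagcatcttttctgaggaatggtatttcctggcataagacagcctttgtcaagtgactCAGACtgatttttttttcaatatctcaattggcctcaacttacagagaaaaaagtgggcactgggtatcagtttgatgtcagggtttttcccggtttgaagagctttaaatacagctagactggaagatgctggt

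The letters occur once upstream of Foxp3, at 2 places upstream of Ccr8, once upstream of Il9 and nowhere in the window of Aqp3. Of 32851 such windows in the RefSeq table, 42.2% hold at least 1 match, as do 41.3% of the windows of 247 genes called higher in WT cells that the table lists. A match is a description of the letters and not a binding site.

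Foxp3 encodes the lineage factor of regulatory T cells (chromosome X: 7156802 to 7172369, plus strand, mm9). It was at 1.46, 1.36 and 1.48 RPKM in KO control and at 4.76, 3.95 and 3.92 RPKM in KO TGF-β. Every KO TGF-β library lay above every KO control library. The log2 difference was 1.09 ± 0.09 (SE, n = 3 against 3, limma adjusted p = 0.00892), 2.93-fold in mean RPKM. The KO TGF-β level was still below that of WT cells without TGF-β, which had 5.76, 6.12 and 5.23 RPKM, and was 6.54% of the WT TGF-β mean of 64.3 ± 8.15 RPKM (SD, n = 3). The rise in WT cells was 3.28 ± 0.10 (SE) on the log2 scale, and it was larger than that in KO cells by 2.19 (interaction, limma adjusted p = 3.9e-07). Foxp3 is the single gene called, and this call is narrow. It was lost without any 1 of the 6 libraries, with log2 differences of 1.02 to 1.13 and limma adjusted p of 0.0167 to 0.0657, and without a filter on low values (limma adjusted p = 0.102).

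Ccr8 encodes a chemokine receptor of regulatory and Th2 cells (chromosome 9: 120001251 to 120004024, plus strand, mm9). Its level was 6.14, 7.84 and 6.94 RPKM in KO control and 13.4, 16.2 and 15.4 RPKM in KO TGF-β. The groups did not overlap, and the differences by replicate number were nearly equal, 1.02, 0.96 and 1.05 on the log2 scale. The log2 difference of 1.01 ± 0.10 (SE) had a limma adjusted p of 0.0214 and was not called. With the replicate number as a block the limma adjusted p was 0.0019, which made Ccr8 a second called gene. WT cells went from 53.7, 50.9 and 58.1 RPKM to 381, 359 and 368 RPKM, so KO cells given TGF-β reached 27.7% of the WT control mean.

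Aqp3 encodes a channel for water and glycerol (chromosome 4: 41039755 to 41045216, minus strand, mm9) and had the largest rise of all called genes in WT cells. It was at 0.78, 1.49 and 1.49 RPKM in KO control and 4.58, 4.21 and 3.88 RPKM in KO TGF-β. The groups did not overlap, with a log2 difference of 1.23 ± 0.14 (SE) and a limma adjusted p of 0.0374, not called. In WT cells it went from 2.60, 1.99 and 2.43 RPKM to 96.5, 87.4 and 98.5 RPKM, 4.83 ± 0.08 (SE) on the log2 scale. Here the KO TGF-β level exceeded that of WT control, of which it was 181%, and was 4.49% of that of WT TGF-β.

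Il9, the cytokine gene that defines Th9 cells (chromosome 13: 56580638 to 56583607, minus strand, mm9), was low in KO cells. It was at 0.58, 0.27 and 0.25 RPKM in KO control and at 2.33, 2.29 and 0.94 RPKM in KO TGF-β. All 3 replicates rose and the groups did not overlap, but replicate 3 rose less. The log2 difference was 1.03 ± 0.21 (SE, unadjusted p = 8.8e-04 in the limma fit), which did not pass the correction. Il9 reached a mean of 1 RPKM only through its KO TGF-β libraries. WT cells had 9.93, 10.9 and 8.15 RPKM without and 45.9, 45.2 and 40.1 RPKM with TGF-β, so the rise in mean RPKM was 5.02-fold in KO and 4.53-fold in WT. The interaction for Il9 was −1.05 on the log2 scale and not called (limma adjusted p = 0.0199). It passed with the replicate number as a block (limma adjusted p = 0.0019) and in the fit of all 24 libraries (limma adjusted p = 0.00766). With a pseudocount of 0.1 in place of 1 the KO difference was 2.02, the WT difference 2.17 and the interaction −0.149 (limma adjusted p = 0.906), so whether Il9 responded less in KO depends on the pseudocount. An exact two-sided permutation test of 3 libraries against 3 cannot give a p below 0.1, and gave 0.1 for each of the 4 genes.

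**Figure D2:**
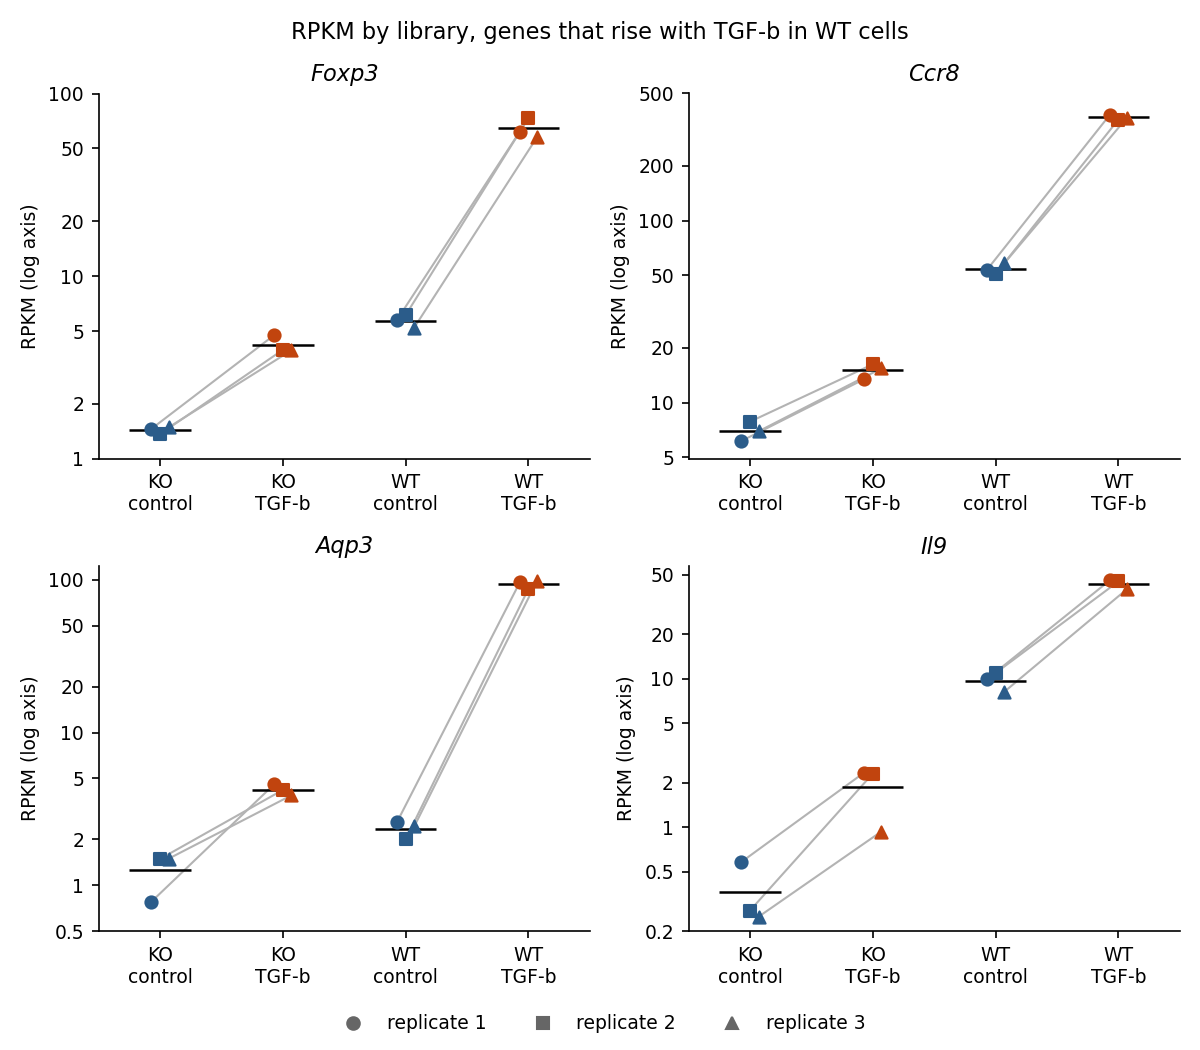
RPKM (log axis) of Foxp3, Ccr8, Aqp3 and Il9 in each library of KO and WT cells; symbols stand for replicate numbers within a genotype, grey lines join libraries of the same number, and black bars are means of 3. All 3 KO TGF-β points lie above the 3 KO control points in each panel, from 2.15-fold for Ccr8 to 5.02-fold for Il9 in mean RPKM, and far below the WT TGF-β points.

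The next genes by unadjusted p that rose in all 3 KO replicates were smaller changes, and none was called. Hbegf, a growth factor of the EGF family, had 0.83, 0.88 and 1.01 RPKM in KO control and 1.44, 1.93 and 1.54 RPKM in KO TGF-β, a log2 difference of 0.46 ± 0.10 (SE), and reached a mean of 1 RPKM only through its KO TGF-β libraries. Ctsw, a cathepsin of cytotoxic cells, had 9.14, 8.34 and 11.1 RPKM against 13.5, 13.4 and 12.3 RPKM (0.43 ± 0.10). The groups did not overlap for either gene, and both were called higher in WT cells, with log2 differences of 1.41 and 2.32. Mzb1, a gene of antibody-secreting cells, differed: it was at 3.42 to 4.16 RPKM in KO control and 4.94 to 5.34 RPKM in KO TGF-β, but in WT cells its log2 difference was −0.74 ± 0.18 (SE, not called). Acsf2 (0.33 ± 0.08) and Fancg (0.25 ± 0.06), the latter a gene of DNA repair, were smaller still. In WT cells Fancg differed by −0.0043.

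The 10 genes that led in the other direction were low, and none was called. Their log2 differences ran from −0.31 for Phf12 to −0.72 for the small nucleolar RNA gene Snora3, with unadjusted p from 6.3e-04 to 0.0073. Snora3 was at 2.87, 1.72 and 2.23 RPKM in KO control and 0.80, 0.93 and 1.19 RPKM in KO TGF-β, a mean under 1 RPKM, so it passed the filter through its control libraries. Ercc6l2, Pigh, AA474331, Zbtb48, BC094916 and Stx4a also fell short of the threshold. The entries Gm3417+Gm3448+Tcte3 and Gm3417+Gm3448 hold near-identical genes that share reads, so they are uncertain. None of the 10 was called in WT cells.

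Some genes with larger fitted differences were not called, with a wide spread between replicates. In all, 10 genes lay past a 1.5-fold rise and 12 past a 1.5-fold fall on the log2(RPKM + 1) scale. The 10 include Foxp3, which was called, and Ccr8, Aqp3 and Il9, whose groups did not overlap. Among the rest, picked after their values were seen, were genes of rare granulocytes. Prg2, of eosinophils, had 0.11, 0.25 and 0.21 RPKM in KO control and 6.94, 0.31 and 17.1 RPKM in KO TGF-β. The basophil genes Mcpt8 and Prss34 were at means of 8.93 and 5.09 RPKM in KO control and of 5.49 and 2.75 RPKM in KO TGF-β, with overlap between the groups for Prss34.

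The genes that responded in WT cells were then read in KO cells, which share no library with the WT comparison. Of the 333 genes called higher in WT cells, 259 passed the filter in KO cells. Their median log2 difference was 0.84 in WT and 0.044 in KO, beside −0.0005 for all genes tested in KO. In KO cells 178 of the 259 (68.7%) were above 0, against 49.7% of all genes tested. At an unadjusted p under 0.05 in the limma fit, 26 of the 259 rose and 5 fell. These values include genes such as Il9 and Hbegf, which passed the filter only through their KO TGF-β libraries. For 247 of the 259 (95.4%) the 95% confidence interval excluded a 1.5-fold rise on the log2(RPKM + 1) scale. A fold on this scale understates the change of low genes, so for low genes a 1.5-fold rise in RPKM was not excluded. The interaction was called for 220 of the 259, in each case with a smaller rise in KO, beside 2.85% of all genes tested in that direction. The interaction fit holds the WT libraries that picked these genes. Its direction was therefore favoured in advance, and the count is no separate evidence.

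What remained was graded by the size of the WT response. Of 23 genes that rose by 2 or more on the log2 scale in WT cells, 11 were tested in KO, with a median of 0.43, and all 11 were above 0, among them Il9, which passed the filter only through its KO TGF-β libraries. Of the 74 tested with a WT rise of 1 to 2, the KO median was 0.082 and 59 were above 0. These 74 include Hbegf, which passed the filter in the same way as Il9. Of the 174 with a smaller WT rise the KO median was 0.023 and 108 were above 0. Without the filter, all 23 can be read. In 16 of the 23 the 3 KO TGF-β libraries all lay above the 3 KO control libraries, and in 0 they all lay below. In the middle class 15 of 109 genes lay wholly above and 0 wholly below, and in the lowest 22 of 201 lay above and 9 below. Over all genes the share wholly above was 3.82% of 16326 without the filter and 3.91% of 9563 with it. The share wholly below was 3.54% of 9563 with the filter and was not taken without it.

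Several of these 16 were too low in KO cells to be tested. Fbxo2, a subunit of a ubiquitin ligase, had 0.08, 0.14 and 0.14 RPKM in KO control and 0.90, 1.42 and 0.93 RPKM in KO TGF-β. Apol9b had 0.04, 0.16 and 0.03 RPKM against 0.73, 0.64 and 0.69 RPKM, and its near-identical neighbour Apol9a, which can share its reads, had 0.07, 0.10 and 0 RPKM against 0.71, 0.50 and 0.60 RPKM. In WT cells given TGF-β, Fbxo2 reached 18.1, 17.8 and 17.8 RPKM. Nt5e, the ectoenzyme CD73 that makes adenosine, had 0.38, 0.53 and 0.64 RPKM against 1.17, 1.05 and 1.16 RPKM, and Emp1 had 0.08, 0.06 and 0.09 RPKM against 0.45, 0.29 and 0.37 RPKM. Fitted without the filter, these genes had log2 differences of 0.35 to 0.88 and limma adjusted p of 0.102 to 0.558, none called. In a fit of all 24 RNA-seq libraries, whose spread is estimated from every group, 6 genes were called higher in KO TGF-β: Foxp3, Ccr8, Aqp3, Fbxo2, Apol9b and Apol9a. In that fit the filter is the mean over all 24 libraries. Fbxo2, Apol9b and Apol9a passed it only through libraries outside the KO comparison, so their calls are no separate support.

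Not every strong WT target moved in KO cells. Syp, the synaptophysin gene, had 0.57, 0.53 and 0.70 RPKM in KO control and 0.50, 0.69 and 0.91 RPKM in KO TGF-β, although it rose by 3.05 in WT cells. Itgae, which encodes the integrin CD103 and is a well-known Smad3 target in T cells, had 0.05, 0.03 and 0.23 RPKM against 0.08, 0.17 and 0.12 RPKM, and rose by 2.06 in WT cells. S100a8, a neutrophil gene named after its values were seen, had 0.16, 0.53 and 11.3 RPKM in KO control and 3.44, 2.76 and 3.38 RPKM in KO TGF-β, a value that 1 control library sets.

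**Figure D3:**
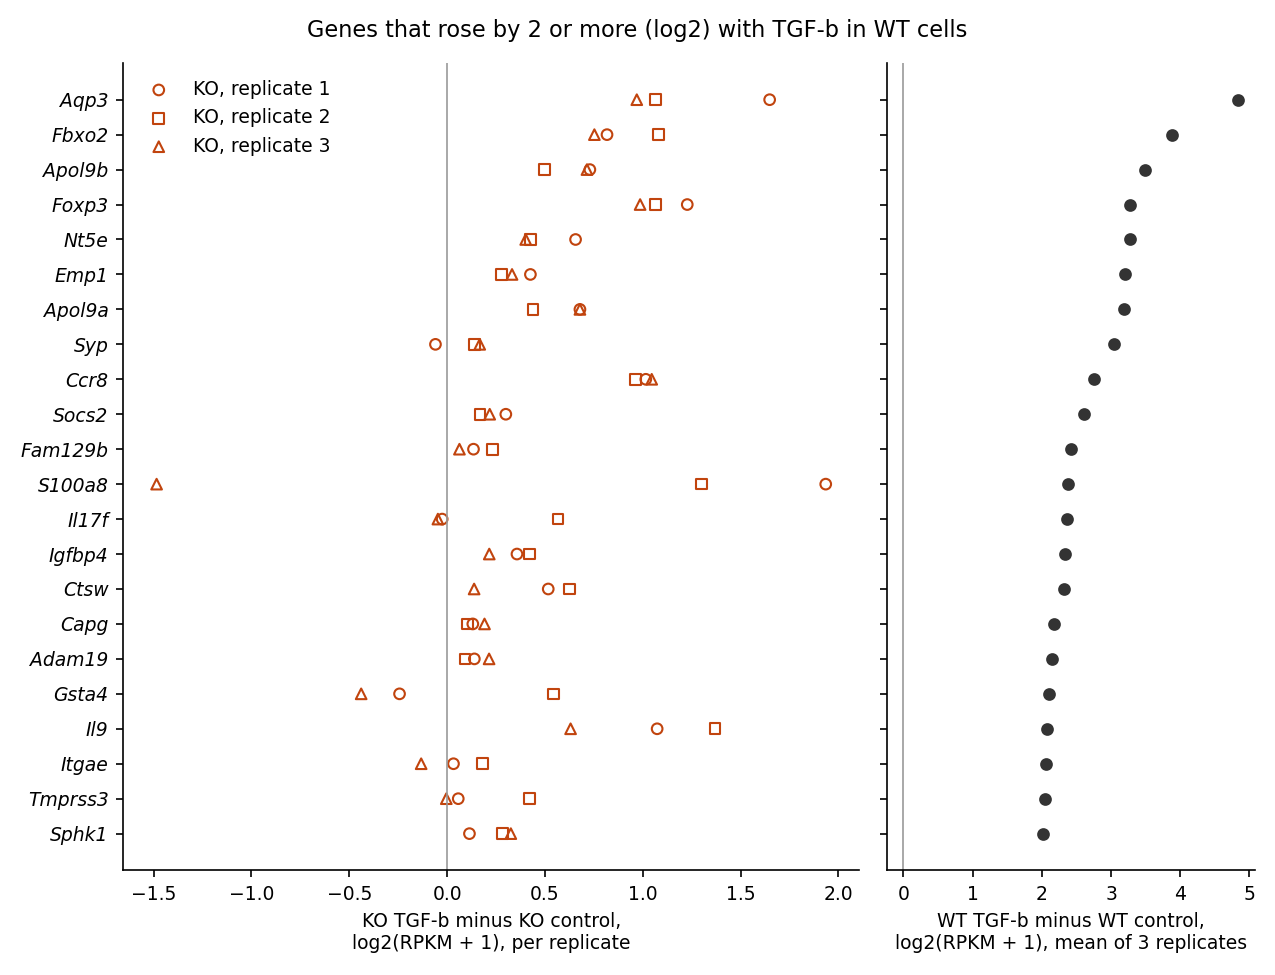
A set of 22 of the 23 genes that rose by 2 or more on the log2(RPKM + 1) scale with TGF-β in WT cells. Left, KO TGF-β minus KO control for each of 3 KO replicates (symbols); right, the WT difference (mean of 3 replicates); most KO points lie right of 0 but under 1, while the replicates disagree in sign for Syp, Itgae, Gsta4, Il17f, Tmprss3 and S100a8.

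The genes that TGF-β lowered in WT cells had a KO median near 0. Of 222 called lower in WT, 219 were tested in KO, with a median log2 difference of −0.83 in WT and −0.0071 in KO. In KO 122 of them (55.7%) were below 0, and at an unadjusted p under 0.05, 4 fell and 8 rose. In all 3 replicates 38 fell and 21 rose, beside 12.6% and 14.6% of all genes tested. For 218 of the 219 (99.5%) the 95% confidence interval excluded a 1.5-fold fall on the log2(RPKM + 1) scale. In 11 of the 222 all KO TGF-β libraries lay below all KO control libraries (5.02% of the 219 tested), beside 3.54% of all genes tested. For the 8 with the largest falls in WT cells this held for 0, and 2 of the 8 lay wholly above. The interaction was called for 167 of the 219, each with a smaller fall in KO, beside 1.86% of all genes tested in that direction. Here too the fit holds the WT libraries that picked the genes, so the direction was favoured in advance.

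Gzmb, which encodes granzyme B, was at 101, 94.1 and 115 RPKM in KO control and 105, 114 and 108 RPKM in KO TGF-β, so the groups overlapped. In WT cells it went from 222, 265 and 203 RPKM to 27.6, 23.9 and 23.2 RPKM, and the interaction was 3.23 on the log2 scale (limma adjusted p = 3.0e-08). Il2, the T cell growth factor, was at 71.0, 54.6 and 48.9 RPKM and 71.7, 62.0 and 54.5 RPKM in the KO groups, while WT cells fell from 76.6, 65.7 and 64.9 to 10.3, 9.75 and 10.6 RPKM. Stat4, the transducer of IL-12, was nearly constant in KO cells, at 27.2, 28.5 and 27.5 RPKM against 27.8, 28.4 and 28.2 RPKM, with a 95% confidence interval of the log2 difference from −0.10 to 0.14. Ifng, the interferon gamma gene, had higher values with TGF-β in KO cells, from 15.5, 10.7 and 9.01 RPKM to 18.7, 14.9 and 19.9 RPKM. All 3 replicates were higher, but the groups overlapped, and the log2 difference of 0.58 ± 0.18 (SE, unadjusted p = 0.0094 in the limma fit) was not called. Il3 was at 4.90, 3.81 and 2.26 RPKM against 5.61, 4.92 and 5.36 RPKM (0.48 ± 0.19, not called), and fell by 2.21 in WT cells. Serpinb9, an inhibitor of granzyme B, was at 33.5, 34.8 and 36.2 RPKM against 37.0, 43.0 and 38.9 RPKM, not called. Il3 and Serpinb9 are the 2 genes that lay wholly above.

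**Figure D4:**
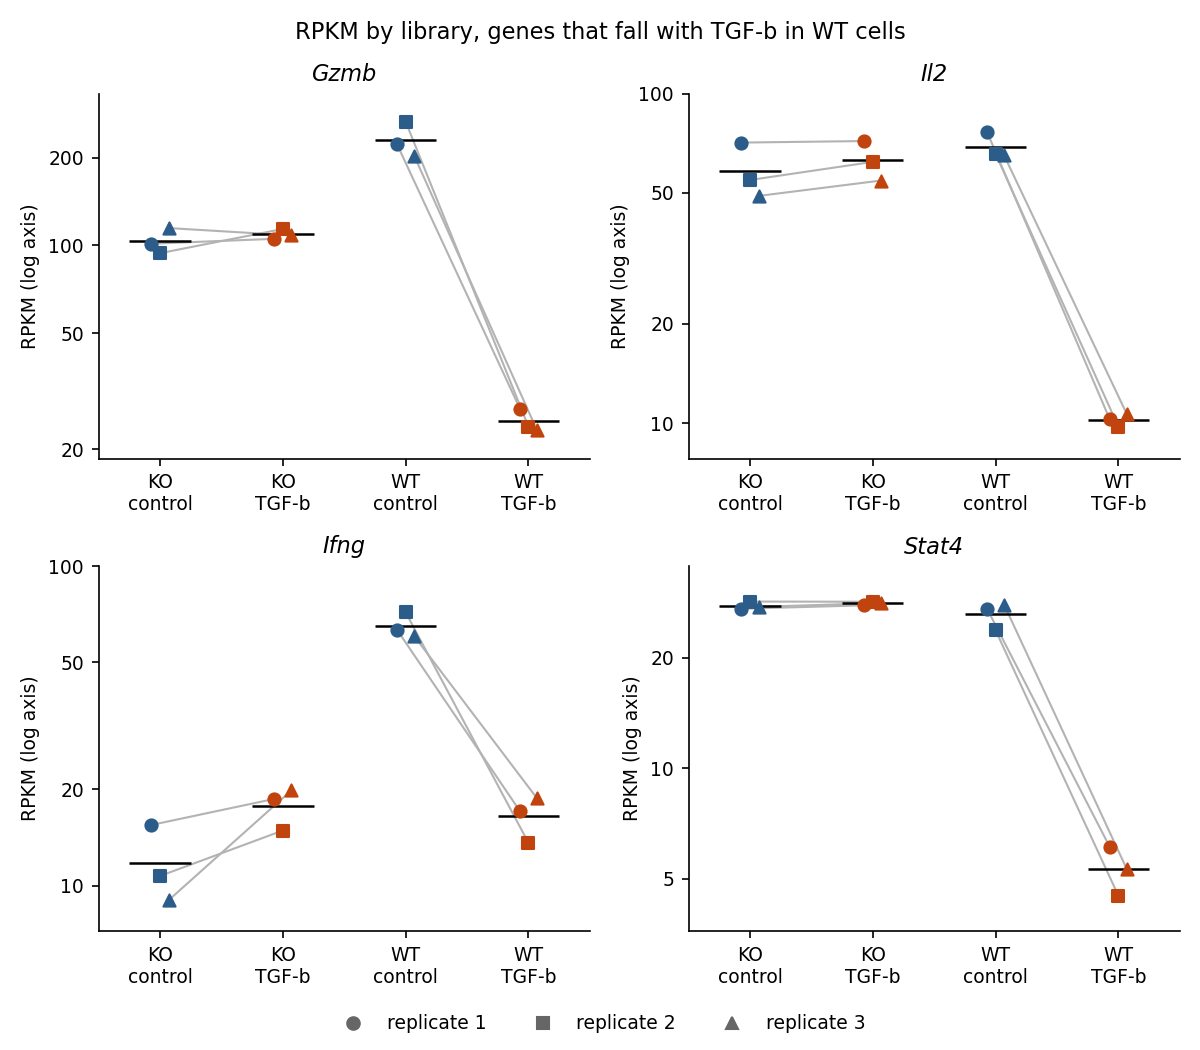
RPKM (log axis) of Gzmb, Il2, Ifng and Stat4 in each library of KO and WT cells; symbols stand for replicate numbers within a genotype, grey lines join libraries of the same number and black bars are means of 3. KO TGF-β and KO control points overlap in each panel. In KO cells Il2 and Ifng were higher with TGF-β in all 3 replicates, while the replicates of Gzmb and Stat4 were mixed. The WT TGF-β points fall to about 24.9 RPKM for Gzmb.

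Genes of the pathway were read from lists. Since 0.0105% of all genes were called in KO, a list with 0 called in KO is at the background and says nothing about its members, and the medians and WT calls are given beside it. The filter was applied to each comparison apart, so the members tested in WT and KO differ. A low gene can pass through the group where it is high. Of 25 ligands and receptors of the TGF-β family, 7 were tested in KO and 0 called, with a median of 0.082, while 5 of 11 tested in WT were called higher. Furin, the protease that processes the TGF-β precursor, was at 10.7, 10.6 and 9.06 RPKM in KO control and 13.5, 11.8 and 11.1 RPKM in KO TGF-β (0.24 ± 0.09, not called), and rose by 1.07 in WT. Of 16 Smads and partners, 12 were tested in KO and 0 called, and their largest log2 difference in either direction was 0.094. The feedback targets, which the pathway induces to restrain itself, had 9 members tested in KO and 0 called, and their median was −0.06, with 3 of 9 above 0. In WT, 6 of 11 were called higher and 1 lower, with a median of 0.81. The 11 include Smad7, which passed the WT filter only through its WT TGF-β libraries. The feedback genes Skil and Ski, which encode repressors of Smads, were not called in KO. Skil was at 1.67, 1.80 and 1.71 RPKM against 1.76, 1.82 and 1.94 RPKM, and Ski at 2.41, 2.04 and 2.28 RPKM against 2.53, 2.52 and 1.92 RPKM. Smad7, the inhibitory Smad, was under the filter, at 0.49, 0.47 and 0.58 RPKM in KO control and 0.44, 0.32 and 0.33 RPKM in KO TGF-β, so it was lower in all 3 KO TGF-β libraries, where WT cells rose from 0.61, 0.53 and 0.70 to 1.71, 1.88 and 1.91 RPKM. Id1, which encodes an inhibitor of helix-loop-helix factors, was at 1.10, 1.10 and 1.19 RPKM against 1.24, 2.08 and 1.88 RPKM (0.34 ± 0.12, not called).

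Of 22 genes known to rise with TGF-β in T cells, 11 were tested in KO. Foxp3 was called, 9 of the 11 were above 0, and the median was 0.14. In WT 12 of 17 were called higher, with a median of 1.28. The 17 include Itgae and Nt5e, which were under the filter in KO, so the medians cover unlike sets of genes. The 11 include Il9, which passed the filter only through its KO TGF-β libraries. Of 22 genes known to fall, 18 were tested in KO and 0 called, with a median of 0.027, against 11 of 19 called lower in WT and a median of −1.07. Of 25 activation cytokines and chemokines, 17 were tested in KO and 0 called, while in WT 9 of 20 were called lower and 2, Ccl1 and Lta, higher. Of 20 Th9 factors, 17 were tested in KO and 0 called, with a median of 0.043. In WT 7 of 19 were called higher and 1 lower. The 17 again include Il9. Dbp, the clock-controlled factor, was at 2.42, 2.38 and 3.05 RPKM in KO control and 2.83, 2.95 and 2.33 RPKM in KO TGF-β, and rose by 0.93 in WT. Stat5a was at 76.7, 74.2 and 74.8 RPKM against 78.9, 76.0 and 76.5 RPKM, and E2f8 at 7.77, 8.25 and 8.76 RPKM against 9.72, 8.62 and 8.24 RPKM, neither called. Of 36 interferon-stimulated genes, 25 were tested in KO and 0 called, against 10 of 28 called lower in WT.

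The lists outside the pathway also had 0 genes called in KO, which at a background of 0.0105% says nothing about their members: early response, STAT and SOCS, G1/S, G2/M, glycolysis and hypoxia, sterol synthesis, amino acid and Atf4, clock, and naïve and homing genes. Their KO medians lay between −0.012 and 0.079. The highest was that of the 48 G2/M genes, of which 43 were above 0 and 4 had an unadjusted p under 0.05. Ccna2, the cyclin A gene, named for the smallest p of them after the values were seen, had a difference that was not called, with a mean of 62.6 RPKM in KO control and 74.2 RPKM in KO TGF-β (0.24 ± 0.07). In WT cells 19 of the 48 were above 0, with a median of −0.052, and in KO cells given TGF-β plus IL-4 against IL-4, 16 of the 48 were above 0, with a median of −0.021. Of the 42 G1/S genes 31 were above 0 in KO, with a median of 0.032. Socs2, a feedback gene of cytokine signaling, had a mean of 6.88 RPKM in KO control and 8.24 RPKM in KO TGF-β (0.23 ± 0.07, not called), and rose by 2.61 in WT. Myc, the growth regulator, was at 270, 283 and 266 RPKM against 269, 288 and 279 RPKM.

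Across the 478 genes called in WT and tested in KO, the WT and KO log2 differences had a Pearson r of 0.33 and a Spearman rho of 0.30, and across all 9437 genes tested in both, 0.17 and 0.10. The 478 include Il9 and Hbegf, which passed the filter only through their KO TGF-β libraries. Genes are not independent replicates, and no test was made of these values.

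**Figure D5:**
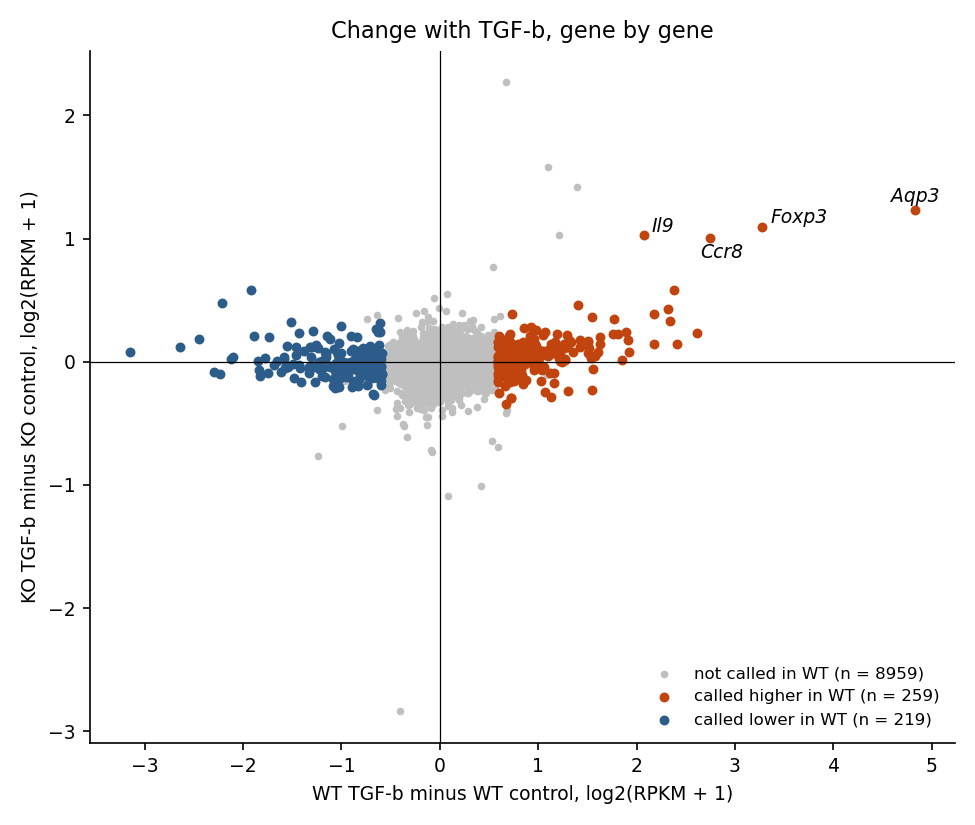
Log2(RPKM + 1) difference with TGF-β in WT cells (x axis) and in KO cells (y axis), 1 point per gene tested in both, coloured by the call in WT. Most points lie flat along the x axis, with Foxp3, Ccr8, Aqp3 and Il9 near 1 on the y axis. Grey points far from 0 on the y axis were not called in either genotype.

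A second comparison of TGF-β in KO cells shares no library with the first: KO cells given TGF-β plus IL-4 against KO cells given IL-4. Its libraries carry the same KO replicate numbers as those of the first, so the comparisons may not be independent. Here 0 of 9660 genes were called in either direction (0%), 284 had an unadjusted p under 0.05 in the limma fit (547 with the replicate number as a block), and the fit of all 24 libraries called 1, Foxp3. Foxp3 was at 0.68, 0.61 and 0.54 RPKM with IL-4 and at 1.27, 1.89 and 1.81 RPKM with both cytokines, so the groups did not overlap (0.71 ± 0.12, limma adjusted p = 0.353). Aqp3 went from 1.36, 2.27 and 0.98 RPKM to 3.14, 6.31 and 4.55 RPKM (1.15 ± 0.24, limma adjusted p = 0.375). Il9 went from 0.84, 0.89 and 0.89 RPKM to 1.38, 2.72 and 1.46 RPKM (0.57 ± 0.17, not called). Foxp3 and Il9 reached a mean of 1 RPKM here only through the libraries given both cytokines. Ccr8 was higher with IL-4 to begin with, at 30.6, 37.0 and 36.6 RPKM, and overlapped with 35.2, 37.6 and 42.6 RPKM for both cytokines. Of the 23 genes with the largest rise in WT cells, 10 lay wholly above in this comparison and 1 wholly below. Among 16254 genes 3.32% lay wholly above, and the share wholly below was not taken. Of the 10, 9 were also among the 16 that lay wholly above with TGF-β alone.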

How the data were processed

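RNA-seq was made by the study from naïve CD4+ T cells with the Smart-seq2 method. Bowtie2 (version not given in the sources used here) placed the reads on mm9, duplicate and poorly mapped reads were discarded, and the authors deposited RPKM, normalized to gene length and mapped reads, for 24089 genes. Read counts of the KO libraries were not at hand, so no count model was used; relative depth came from the steps between low values. The authors' peak lists were not used, and no other value column was left out.

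Genes with a mean of at least 1 RPKM over the libraries in a fit were tested with limma 3.58.1 in R 4.3.3 (linear model, trend, two-sided) on log2(RPKM + 1), with Benjamini-Hochberg adjustment over all genes tested and the study's thresholds (adjusted p under 0.01, fold over 1.5). A fold on this scale understates the change of low genes. Each fit held only the compared groups. Samples were grouped by their labels and joined to columns by library-number order; the headings served as an alternative. The members and gene lists were chosen with earlier results of these data known. Named genes were the 10 per direction in KO (called genes first, then by unadjusted p, same direction in all 3 replicates), the 8 per direction with the largest called change in WT, and examples from lists; others are said to be picked after their values were seen. 1 gene that the rule names is not reported here, but is included in the counts. Where RPKM of the 23 largest WT responses are given, the filter was not applied.

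The sources do not say what a shared replicate number stands for. Libraries that share a number correlated, after each group's mean was subtracted, at 0.32, 0.36 and 0.34 in KO, so the numbers were taken to pair KO libraries, and at −0.04, 0.58 and 0.51 in WT. The number was a replicate block in an alternative fit. The limma script was tested on simulated data. Gene positions are from GENCODE vM1 (mm9). Python 3.11.15, pandas 2.3.3 and matplotlib 3.10.9 were used for tables and plots.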

Additional observations from a re-analysis of the deposited data

Results flagged for a closer look

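The test of the interaction of genotype and TGF-β picked out 456 genes whose response differed between KO and WT cells. The differences given here are KO minus WT, on the log2(RPKM + 1) scale, from the limma fit, each with an adjusted p under 0.01. Among the genes that rose in WT cells they were −2.19 for Foxp3, −1.74 for Ccr8, −3.61 for Aqp3, −3.00 for Fbxo2, −2.85 for Apol9b, −2.78 for Nt5e, −2.85 for Emp1, −2.59 for Apol9a and −2.96 for Syp. Among the genes that fell in WT cells they were 3.23 for Gzmb, 2.75 for Il2, 2.63 for Serpinb9, 2.21 for Nrn1, 2.13 for Gzma, 2.69 for Il3, 2.14 for Stat4 and 2.14 for Plk2. Most of these genes were named for their change in WT libraries, which this fit also holds, so their directions were favoured in advance. Groups of 3 libraries are too small for a search for single outlying samples.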

How the results depend on the processing

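The KO comparison called 1 gene. It called 0 with the columns as headed, without a filter, with a minimum mean of 5 RPKM, with scaling by median ratios and with quantile normalization, and 0 to 0 when 1 library was left out. It called 3 at an adjusted p under 0.05, 2 with the replicate block and 6 in the fit of all 24 libraries. Of these 6, Fbxo2, Apol9b and Apol9a passed the filter only through libraries outside the KO comparison. Foxp3 kept a log2 difference of 1.02 to 1.48 in every alternative that tested it except the headings (0.054), and was not tested with a minimum of 5 RPKM. With the columns as headed the WT comparison and the interaction both called 0 genes, so no KO median of genes called in WT could be had; with a minimum of 5 RPKM they called 342 and 284, because fewer genes were tested. KO TGF-β plus IL-4 against IL-4 called 1 in the fit of all 24 libraries. The median KO change of genes called higher in WT was 0.037 to 0.060, and of genes called lower −0.017 to −0.00036, over all alternatives run. Leaving out 1 library gave 500 to 568 calls in WT and 412 to 448 in the interaction. The replicate block changed no other count of called genes by over 1.5 times; among named genes it made Ccr8 in KO and the interaction of Il9 pass (adjusted p = 0.0019 in limma). A pseudocount of 0.1 moved the KO difference of Il9 from 1.02 to 2.02 and its interaction from −1.05 to −0.149.

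With the columns as headed these KO differences changed sign: Ctsw −0.015, Acsf2 −0.15, Fancg −0.0495, Ercc6l2 0.12, Pigh 0.068, AA474331 0.031, Gm3417+Gm3448+Tcte3 0.27, Gm3417+Gm3448 0.18, Phf12 0.077, BC094916 0.18, Gzmb −0.044, Il2 −0.15, Gzma 0.069, Tgfbr2 −0.074, Dbp −0.15, E2f8 −0.074, Stat5a −0.043, Ifng −0.46, and with IL-4 present Aqp3 −0.051. Leaving out 1 library moved genes near 0 across it: Tgfbr1 −0.096 to 0.091, Dbp −0.013 to 0.12, Ski −0.016 to 0.12, Gzma −0.25 to 0.030 and Plk2 −0.028 to 0.13.

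Depth is known only in relative terms, and no limit of detection was set for genes near 0 RPKM. The KO order of columns rests on inference, and with the headings no gene was called in either genotype. RPKM cannot show how much functional receptor was left.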
